A study of Mus with 18 samples.

Results

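The 9 genes described here make glutathione, import its limiting precursor or use it, and they were followed across 6 treatment groups of RAW264.7, a transformed mouse line that behaves much like macrophages. They were taken by gene name from a table of 54532 genes: Slc7a11, Gclc, Gclm, Gss, Gsr, Gpx1, Gpx4, Glrx and G6pdx. Each name matched 1 Ensembl identifier, and all 9 passed the filter on low counts with at least 538 counts in every library. Control cells had no treatment, a second group received LPS (lipopolysaccharide, the endotoxin of Gram-negative bacteria) at 1 µg/mL, and the remaining 4 received that LPS together with caffeic acid (CA), with chlorogenic acid (CGA), with the cysteine adduct of caffeic acid (CACys) or with the cysteine adduct of chlorogenic acid (CGACys), each compound at 100 µM. RNA was taken after 6 h, with 3 libraries in each group and 18 in all. In chlorogenic acid the caffeic acid is esterified to quinic acid, and each adduct carries a cysteine on its parent acid. No group received a compound without LPS, so a change in the LPS response and an action of the compound alone cannot be told apart. None received free cysteine, so between adduct and parent an effect of the cysteine itself and one of the adduct cannot be told apart. All cells are of 1 line, nothing states that the 3 libraries of a group came from separate cultures, and p-values cover the spread between these libraries, which may be technical.

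Glutathione is a tripeptide of glutamate, cysteine and glycine that reduces peroxides and binds reactive electrophiles. Cells import oxidised cysteine (cystine), join cysteine to glutamate by glutamate-cysteine ligase, which sets the pace of synthesis, and then add glycine. Peroxidases and glutaredoxins spend glutathione, and glutathione reductase restores it with NADPH from the pentose phosphate pathway. In activated macrophages this system is known to balance the oxidants that the cells release, and several of its genes are known targets of the electrophile-sensing transcription factor NRF2.

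Library totals ran from 16105817 to 25624935 counts. Levels below are in CPM, read counts scaled to a common library size and corrected for composition, and they compare a gene between libraries, not one gene with another, because no transcript lengths were used. A gene is called changed at an edgeR adjusted p of 0.05 or less, adjusted over all 13251 genes tested. All 8 macrophage markers examined were detected, and their summed level was 4684 to 6470 CPM, whereas epithelial markers summed to at most 0.221 CPM and the erythroid markers had no count. In bulk RNA, fewer cells of a type and less RNA per cell cannot be told apart. Replicate 2 of LPS + CA stood apart from its fellows: ribosomal protein genes took 5.14% of its counts against 4.34% and 4.34%, and the main counts that rest on it are given without it as well.

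LPS alone raised the transcripts of the cystine carrier, the modifier subunit of the ligase, the synthetase, the reductase, glutaredoxin and the NADPH-forming dehydrogenase, and lowered those of both peroxidases, while the catalytic subunit did not pass the test. Slc7a11 rose 15.6-fold, the largest change among the 9, Glrx 3.85-fold, Gsr 2.67-fold, Gclm 2.10-fold, Gss 1.86-fold and G6pdx 1.39-fold. Gpx1 fell 1.64-fold and Gpx4 fell 1.49-fold. Of the 9 genes 6 were called higher and 2 lower. The share called among all 13251 genes was 62.2%, with 30.6% higher and 31.6% lower, and the median log2 change was 0.90 for the 9 genes and -0.02 for all genes.

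**Figure D1:**
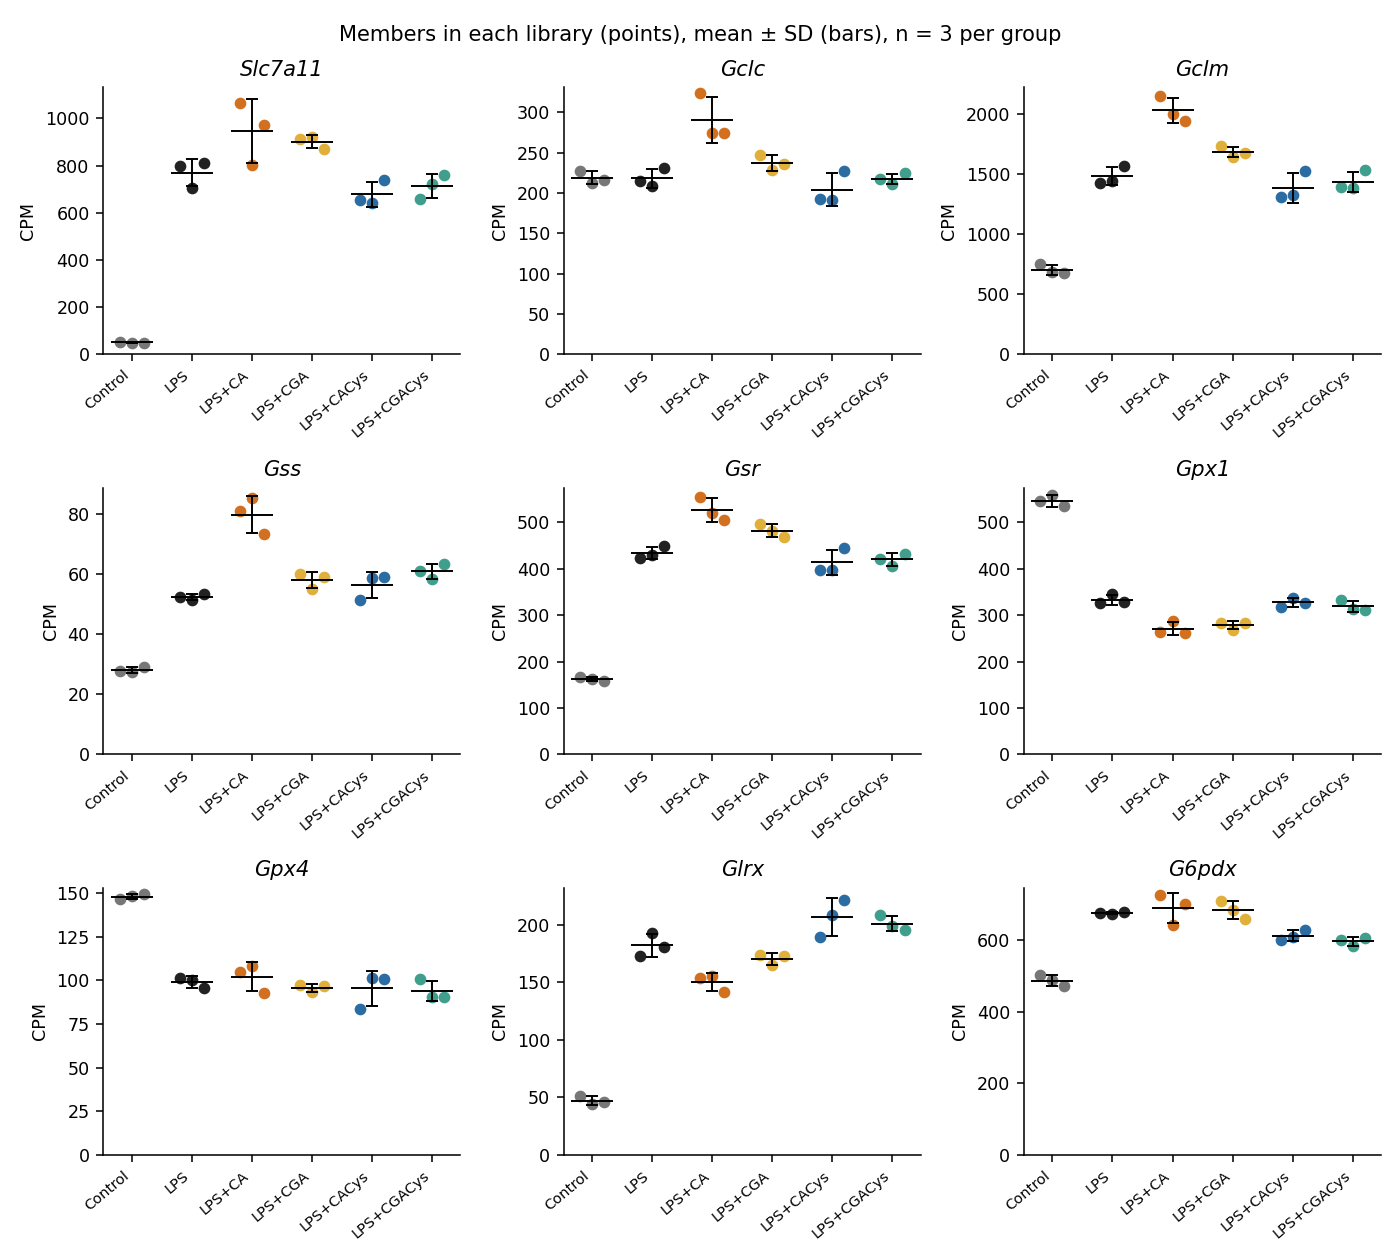
Level of each of the 9 genes in CPM (vertical axes, each from 0) in the 18 libraries, by treatment group (horizontal axes). Points are libraries and black bars are the group mean ± SD (n = 3). Slc7a11 stands near 49.3 CPM in control and at 639 CPM or more in every LPS library, and the LPS + CA points lie highest for Gclc, Gclm, Gss and Gsr.

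Slc7a11 encodes the light chain of the cystine-glutamate exchanger (ENSMUSG00000027737, chromosome 3, 50364936 to 50499087, GRCm38.p6). Its level was 52.4, 48.6 and 46.8 CPM in the control libraries and 797, 703 and 811 CPM with LPS alone. The groups lay far apart, and the log2 change was 3.97 (SE 0.10, edgeR adjusted p = 1.95e-15). With LPS + CA the libraries held 1067, 802 and 971 CPM and with LPS + CGA 912, 921 and 872 CPM. Replicate 2 of LPS + CA therefore fell inside the LPS range, whereas all CGA libraries lay above it. With CACys the libraries held 656, 639 and 737 CPM and with CGACys 658, 723 and 759 CPM, and both adduct groups overlapped LPS alone.

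Gclc encodes the catalytic subunit of glutamate-cysteine ligase (ENSMUSG00000032350, chromosome 9, 77754535 to 77794489). It stood at 228, 213 and 216 CPM in control and 215, 209 and 231 CPM with LPS, and the groups overlapped, with log2 -0.01 and a 95% interval of -0.14 to 0.13. The LPS + CA libraries held 324, 274 and 275 CPM and lay above every library of the other 5 groups. Gclm encodes the modifier subunit, which raises the affinity of the enzyme for glutamate (ENSMUSG00000028124, chromosome 3, 122245487 to 122267215). It rose from 751, 685 and 674 CPM in control to 1427, 1443 and 1565 CPM with LPS (log2 1.07, SE 0.06, edgeR adjusted p = 5.13e-15). LPS + CA brought it to 2145, 1996 and 1942 CPM, above every other library, and LPS + CGA to 1729.8, 1641 and 1673 CPM.

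The counts of the modifier subunit therefore moved relative to those of the catalytic subunit with LPS, and little after that. The ratio of Gclm to Gclc counts was 3.29, 3.22 and 3.12 in the control libraries and 6.65, 6.92 and 6.77 with LPS alone. It was 6.98 ± 0.337 with CA, 7.10 ± 0.1005 with CGA, 6.78 ± 0.103 with CACys and 6.58 ± 0.222 with CGACys (mean ± SD, n = 3). All 15 LPS libraries lay between 6.39 and 7.27, apart from the control libraries. The ratio is of counts not corrected for transcript length, so only its differences between libraries carry meaning, and it was described without a test.

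**Figure D2:**
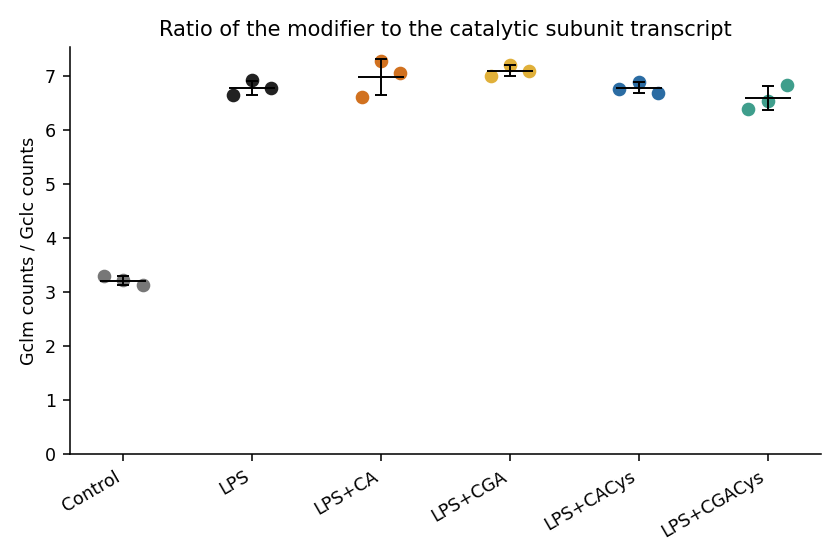
Ratio of Gclm counts to Gclc counts (vertical axis, no unit, from 0) in each library by treatment group; points are libraries and bars are mean ± SD (n = 3). The control libraries lie between 3.12 and 3.29 and the 15 LPS libraries between 6.39 and 7.27.

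Gss encodes glutathione synthetase, which adds glycine (ENSMUSG00000027610, chromosome 2, 155563181 to 155592810). It rose from 27.7, 27.4 and 29.1 CPM in control to 52.2, 51.3 and 53.2 CPM with LPS (log2 0.90, SE 0.07, edgeR adjusted p = 1.36e-12). With CA it reached 80.9, 85.1 and 73.3 CPM, and no other library exceeded 63.2 CPM. The other compounds kept it between 51.2 and 63.2 CPM. The lncRNA gene Gssos2 overlaps Gss, and whether counting used strand is not given, but Gssos2 had 23 counts over all libraries against 538 or more for Gss in each.

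Gsr encodes glutathione reductase, which restores reduced glutathione (ENSMUSG00000031584, chromosome 8, 33653238 to 33698162). It rose from 167, 163 and 158 CPM in control to 423, 430.0 and 449 CPM with LPS (log2 1.42, SE 0.05, edgeR adjusted p = 2.25e-20). LPS + CA libraries held 555, 519.7 and 505 CPM and LPS + CGA libraries 497, 481 and 468 CPM, all above the LPS range, whereas both adduct groups overlapped it. G6pdx encodes glucose-6-phosphate dehydrogenase, the entry enzyme of the pentose phosphate pathway (ENSMUSG00000031400, chromosome X, 74409483 to 74428880). It rose from 502, 489 and 472 CPM to 676, 674 and 679.6 CPM with LPS (log2 0.47, SE 0.04, edgeR adjusted p = 1.91e-10). CA and CGA left it between 644 and 727 CPM, around the LPS values, while the CACys libraries held 600.3, 609 and 629 CPM and the CGACys libraries 602, 584 and 606 CPM, all below LPS alone. The annotated span of G6pdx overlaps that of Ikbkg, so reads in the shared stretch could be split between them.

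Gpx1 encodes the main cytosolic glutathione peroxidase (ENSMUSG00000063856, chromosome 9, 108339080 to 108340342). It fell from 547, 559.8 and 534 CPM in control to 325, 346 and 328 CPM with LPS (log2 -0.72, SE 0.05, edgeR adjusted p = 3.03e-14). With CA it stood at 263, 288 and 262 CPM and with CGA at 283, 269 and 284 CPM, and these 6 libraries lay below all others. Gpx4 encodes the peroxidase that reduces lipid hydroperoxides in membranes (ENSMUSG00000075706, chromosome 10, 80047166 to 80056439). It fell from 146, 148 and 149 CPM to 102, 100.2 and 95.4 CPM with LPS (log2 -0.58, SE 0.06, edgeR adjusted p = 3.39e-09), and all 15 LPS libraries lay between 83.8 and 108 CPM whatever the compound. A Gpx4 pseudogene in the table, Gpx4-ps2, had 1703 counts over all libraries, so a small share of Gpx4 reads could have been placed there.

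Glrx encodes glutaredoxin 1, which removes glutathione from modified protein cysteines (ENSMUSG00000021591, chromosome 13, 75839885 to 75850151). It rose from 51.2, 44.5 and 45.8 CPM in control to 173, 193 and 180.5 CPM with LPS (log2 1.95, SE 0.06, edgeR adjusted p = 2.18e-21). With CA it was lower, at 153, 156 and 141 CPM, and with CACys the libraries held 189, 209 and 222 CPM. Glrx was thus the only one of the 9 called lower with CA and higher with CACys, each against LPS alone.

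The other genes of the pathway came from a list of 77 gene symbols, which matched 79 identifiers, of which 60 were tested. With LPS 30 of the 60 were called higher and 13 lower, and their median log2 change was 0.27. Chac1, which degrades glutathione in the cytosol, rose from 8.89 ± 1.26 to 47.4 ± 3.83 CPM (n = 3), a log2 change of 2.41. Slc1a4, a neutral amino acid carrier gene, rose from 8.70 ± 1.15 to 46.0 ± 2.16 CPM (log2 2.40), and Abcc5, an organic anion exporter gene, from 29.2 ± 1.62 to 135.9 ± 3.19 CPM (log2 2.22). Amino acid carriers had 6 of 7 higher and none lower, glutathione transferases 8 higher and 4 lower of 20, other NADPH sources 3 higher and 2 lower of 9, and the other glutaredoxins 1 higher and 2 lower of 3. These were 85.7%, 60.0%, 55.6% and 100% called, so the transferases and NADPH sources lay slightly below the 62.2% of all genes. For Chac1 edgeR gave an adjusted p of 2.23e-19, for Slc1a4 2.23e-19 and for Abcc5 7.53e-18. The summed level of the fibroblast markers, 3 of 6 of them tested, was 5.01 to 5.59 CPM with LPS and 1.28 to 1.88 CPM in control, with all 3 tested markers (Col6a1, Dcn and Pdgfra) called higher. The summed neutrophil and mast cell markers were 7.21 to 9.83 CPM with LPS and 4.27 to 4.43 CPM in control, with S100a8 and Kit, of the 3 tested, called higher, as were the endothelial marker Cdh5 and the lymphocyte marker Pax5. The summed macrophage markers were 5837 to 5997 CPM with LPS and 6278 to 6470 CPM in control. Within that list Lyz2 (log2 -1.39), Itgam (-0.79), Cd68 (-0.41) and Csf1r (-0.16) were called lower. Adgre1 (3.38), Cd14 (0.73), Spi1 (0.60) and Ptprc (0.40) were called higher. The part of these markers in the results was not tested.

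Caffeic acid raised the synthesis genes and the reductase gene Gsr beyond LPS alone. Gss rose 1.53-fold, Gclm 1.37-fold, Gclc 1.34-fold and Gsr 1.21-fold, while Gpx1 fell 1.23-fold and Glrx fell 1.21-fold. Of the 9 genes 4 were called higher and 2 lower, against a background of 7.72% of all genes (2.30% higher, 5.42% lower). The median log2 change was 0.28 for the 9 and 0.01 for all genes. For these 6 genes, picked by the call, the LPS + CA and LPS libraries did not overlap. The share of all genes without overlap was not counted. The edgeR adjusted p was 1.03e-06 for Gss (log2 0.61, SE 0.06), 2.11e-05 for Gclm (0.46, 0.06), 0.000177 for Gclc (0.42, 0.06) and 0.000318 for Gsr (0.28, 0.05). It was 0.000115 for Gpx1 (-0.30, 0.05) and 0.002 for Glrx (-0.28, 0.06).

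The 3 genes not called with CA were Slc7a11 at log2 0.30 (95% interval 0.11 to 0.49, edgeR adjusted p = 0.0538), Gpx4 at 0.04 (-0.09 to 0.17) and G6pdx at 0.03 (-0.06 to 0.12). With replicate 2 of LPS + CA left out, Slc7a11 was called higher at log2 0.40 (edgeR adjusted p = 0.00913), and the 6 calls were kept at log2 0.56 for Gss, 0.47 for Gclm, 0.46 for Gclc, 0.29 for Gsr, -0.34 for Gpx1 and -0.30 for Glrx. By DESeq2 Slc7a11 was also called (log2 0.29, adjusted p = 0.00738). The summed level of the neutrophil and mast cell markers was 10.7 to 15.1 CPM with CA and 7.21 to 9.83 CPM with LPS alone. Of these 6 markers 3 were tested, 2 of them (Ly6g and S100a8) were called higher and Mpo had no count in any library. The summed macrophage markers were 5200 to 5416 CPM with CA and 5837 to 5997 CPM with LPS alone, and 5 of the 8 (Adgre1, Cd14, Itgam, Lyz2 and Ptprc) were called lower. The part of these markers in the result was not tested.

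Of the 60 other pathway genes 14 were called higher with CA and 0 lower by edgeR, with 25 at an unadjusted p under 0.05 in either direction and 14 higher by DESeq2. The edgeR calls were 23.3% of the 60, against 7.72% of all genes (2.30% higher, 5.42% lower). Gsta2 and Gsta3, which encode alpha-class glutathione transferases, rose by a log2 of 1.03 (1.91 ± 0.551 to 3.88 ± 0.499 CPM) and 0.64 (16.7 ± 1.84 to 26.2 ± 1.71 CPM). Prdx6, a peroxiredoxin gene whose product is reduced by glutathione, rose by 0.53 from 225.9 ± 0.965 to 326 ± 25.2 CPM. For Gsta2 edgeR gave an adjusted p of 0.0053, for Gsta3 8.27e-05 and for Prdx6 6.14e-07. Other NADPH sources had 5 of 9 higher, glutathione transferases 4 of 20, the glyoxalase system 2 of 3 and the gamma-glutamyl cycle 0 of 7 by edgeR. With CA and LPS fitted alone 7 of the 60 were called, with 434 calls over all genes in place of 1023. Without CA replicate 2 the count was 12, all higher, with 882 calls over all genes.

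**Figure D3:**
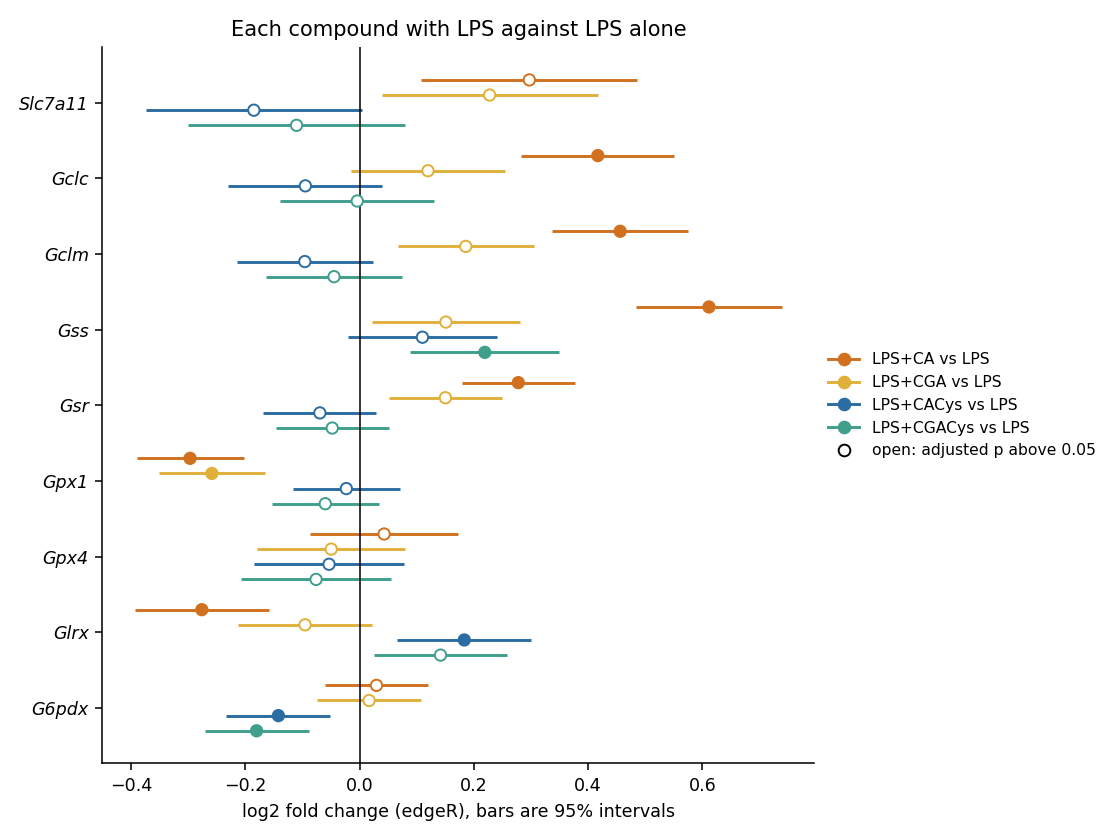
log2 fold change of each gene with each compound and LPS against LPS alone (horizontal axis), with 95% intervals as bars, from edgeR with 3 libraries per group; filled points have an adjusted p of 0.05 or less. CA has 6 filled points, from -0.30 for Gpx1 to 0.61 for Gss, CGA 1 and each adduct 2.

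Chlorogenic acid had 1 call among the 9 genes, where 0.724% of all genes were called, 0.0679% higher and 0.657% lower. Gpx1 fell 1.20-fold (log2 -0.26, SE 0.05, edgeR adjusted p = 0.0115), and its libraries did not overlap those of LPS alone. That call was lost without LPS replicate 1 (adjusted p = 0.0507), LPS replicate 2 (0.166) or CGA replicate 3 (0.159). Slc7a11 stood at log2 0.23 (95% interval 0.04 to 0.42), Gclm at 0.19 (0.07 to 0.30), Gss at 0.15 (0.02 to 0.28), Gsr at 0.15 (0.05 to 0.25) and Gclc at 0.12 (-0.01 to 0.25), none of them called. With CGA and LPS fitted alone 4 genes were called, with Slc7a11, Gclm and Gsr higher. The 3 CGA libraries lay above all LPS libraries for Slc7a11, Gclm, Gss and Gsr. The share of all genes that separate in this way was not counted, so this is description only. Of the other pathway genes 1 of 60 was called, Abcc4, an exporter gene, which rose from 80.1 ± 4.45 to 99.2 ± 1.57 CPM (log2 0.31, edgeR adjusted p = 0.0319). That call too was lost without LPS replicate 1 or 2 or any CGA replicate, each of which left 0 pathway calls by edgeR, with 5 to 10 genes at an unadjusted p under 0.05, while DESeq2 on all libraries called 1. With CGA and LPS fitted alone 3 of the 60 were called, all higher.

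Each cysteine adduct had 2 calls among the 9 genes against LPS alone, 22.2%, beside 14.3% of all genes with CACys and 29.1% with CGACys. CACys raised Glrx 1.14-fold (log2 0.18, SE 0.06, edgeR adjusted p = 0.0292), with overlapping libraries, and lowered G6pdx 1.10-fold (log2 -0.14, SE 0.04, adjusted p = 0.0295). This was 2 of 9, where 14.3% of all genes were called (8.51% higher, 5.75% lower), and omitting single libraries gave 0 to 2 calls. No gene was called without LPS replicate 1 or 3 or CACys replicate 2 (edgeR, with 2 at an unadjusted p under 0.05 each time), and Glrx alone was called without LPS replicate 2 or CACys replicate 1. Without CACys replicate 3 Glrx was lost (edgeR adjusted p = 0.183), G6pdx was kept and Gclm was called lower (log2 -0.17, adjusted p = 0.0452). CGACys raised Gss 1.16-fold (log2 0.22, SE 0.06, adjusted p = 0.00949) and lowered G6pdx 1.13-fold (log2 -0.18, SE 0.04, adjusted p = 0.00254), again 2 of 9, where 29.1% of all genes were called (16.1% higher, 13.0% lower). Without CGACys replicate 3 the Gss call was lost (adjusted p = 0.0506), leaving G6pdx. Glrx stood at log2 0.14 with CGACys (edgeR adjusted p = 0.0629), without overlap with LPS alone, and was called without LPS replicate 2 (0.0322).

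Of the 4 genes that CA raised, none passed the edgeR test with CACys, at log2 0.11 for Gss (95% interval -0.02 to 0.24), -0.10 for Gclm (-0.21 to 0.02), -0.10 for Gclc (-0.23 to 0.04) and -0.07 for Gsr (-0.17 to 0.03). With CGACys, Gss was called higher as given above, while Gclm stood at -0.04 (-0.16 to 0.07), Gclc at 0.00 (-0.14 to 0.13) and Gsr at -0.05 (-0.15 to 0.05), none of these 3 called. Slc7a11 stood at -0.19 (-0.37 to 0.00) with CACys and -0.11 (-0.30 to 0.08) with CGACys. All of these comparisons share the 3 LPS libraries.

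Of the 60 other pathway genes 1 was called higher and 7 lower with CACys, 13.3% against 14.3% of all genes, and 11.7% lower against 5.75%. With CGACys 5 were called higher and 16 lower, 35.0% against 29.1% of all genes, and 26.7% lower against 13.0%. The shares called in either direction were near the background. Slc38a2, a carrier gene for neutral amino acids, fell from 838 ± 14.8 CPM with LPS alone to 613 ± 9.59 CPM with CACys (log2 -0.45, edgeR adjusted p = 6.29e-09) and 565 ± 8.23 CPM with CGACys (-0.57, 1.65e-11). Abcc5 fell from 135.9 ± 3.19 CPM to 106 ± 6.56 CPM (log2 -0.35, edgeR adjusted p = 0.00143) and 89.7 ± 6.36 CPM (-0.60, 1.02e-06). Gstm1, a mu-class transferase gene, fell with CACys from 119 ± 5.93 to 92.8 ± 5.50 CPM (log2 -0.36, edgeR adjusted p = 0.0142), and Gstt3, a theta-class gene, rose with CGACys from 6.74 ± 1.46 to 9.37 ± 0.842 CPM (log2 0.47, adjusted p = 0.017). Other NADPH sources had 3 of 9 lower with CACys and 6 of 9 with CGACys, with none higher in either. Without CACys replicate 1 the CACys count was 5, and the CGACys count was 13 without LPS replicate 3 or CGACys replicate 2. The summed macrophage markers were 5837 to 5997 CPM with LPS alone, 5107 to 5197 CPM with CACys and 4684 to 4728 CPM with CGACys, and the summed fibroblast markers were 5.01 to 5.59, 5.32 to 7.11 and 7.91 to 8.33 CPM. Within the macrophage list 5 of the 8 were called lower with each adduct, Ptprc was called higher with both (log2 0.22 and 0.26), and Itgam and Spi1 were not called. No fibroblast, neutrophil or mast cell marker was called with CACys. Col6a1 (log2 1.24) and Pdgfra (0.62) were called higher with CGACys, and Dcn was not called. Ly6g (1.19) was called higher and S100a8 (-0.94) lower with CGACys, and Kit was not called. Their part in these results was not tested.

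Set against its parent at the same dose and time, the caffeic acid adduct differed in nearly all of the 9 genes. Gclm was 1.47-fold lower with CACys than with CA, Gclc 1.43-fold, Gss 1.42-fold, Slc7a11 1.40-fold, Gsr 1.27-fold and G6pdx 1.13-fold lower, while Glrx was 1.38-fold and Gpx1 1.21-fold higher. This was 8 of 9 called, 6 lower and 2 higher, against 27.1% of all genes, 11.9% lower and 15.2% higher. The median log2 difference was -0.35 for the 9 genes and 0.00 for all genes. The libraries of CACys and CA did not overlap for any of these 8, which were picked by the call. The share of all genes without overlap was not counted. The edgeR adjusted p was 4.97e-08 for Gclm (log2 -0.55, SE 0.06), 3.77e-07 for Gss (-0.50, 0.06), 4.3e-07 for Glrx (0.46, 0.06), 1.46e-06 for Gclc (-0.51, 0.06), 2.2e-06 for Gsr (-0.35, 0.05) and 3.41e-05 for Gpx1 (0.27, 0.05). It was 0.000663 for Slc7a11 (-0.48, 0.09) and 0.00414 for G6pdx (-0.17, 0.04), and the G6pdx call was lost in a model of only these 2 groups (0.0885). Without CA replicate 2 there were again 8 calls, 6 lower and 2 higher, with Slc7a11 at -0.59 and Gclm at -0.56. Gpx4, at log2 -0.10 (95% interval -0.23 to 0.03), was not called, and without CA replicate 3 it was (log2 -0.17, adjusted p = 0.0417).

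Of the 60 other pathway genes 27 were lower and 1 higher with CACys than with CA. This was 46.7% called against 27.1% of all genes, and 45.0% lower against 11.9%. Gsta3 stood at 14.999 ± 0.948 with CACys against 26.2 ± 1.71 CPM with CA (log2 -0.81), and Gstm1 stood at 92.8 ± 5.50 against 155 ± 25.4 CPM (log2 -0.74). Gsta2 stood at 2.50 ± 0.447 against 3.88 ± 0.499 CPM (log2 -0.63). In edgeR the adjusted p was 2.81e-07 for Gsta3, 7.32e-06 for Gstm1 and 0.0393 for Gsta2. With CACys and CA fitted alone 18 of the 60 were called, with 2145 calls over all genes in place of 3589. Without CA replicate 2 the count was 22, 21 of them lower, with 3108 calls over all genes.

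**Figure D4:**
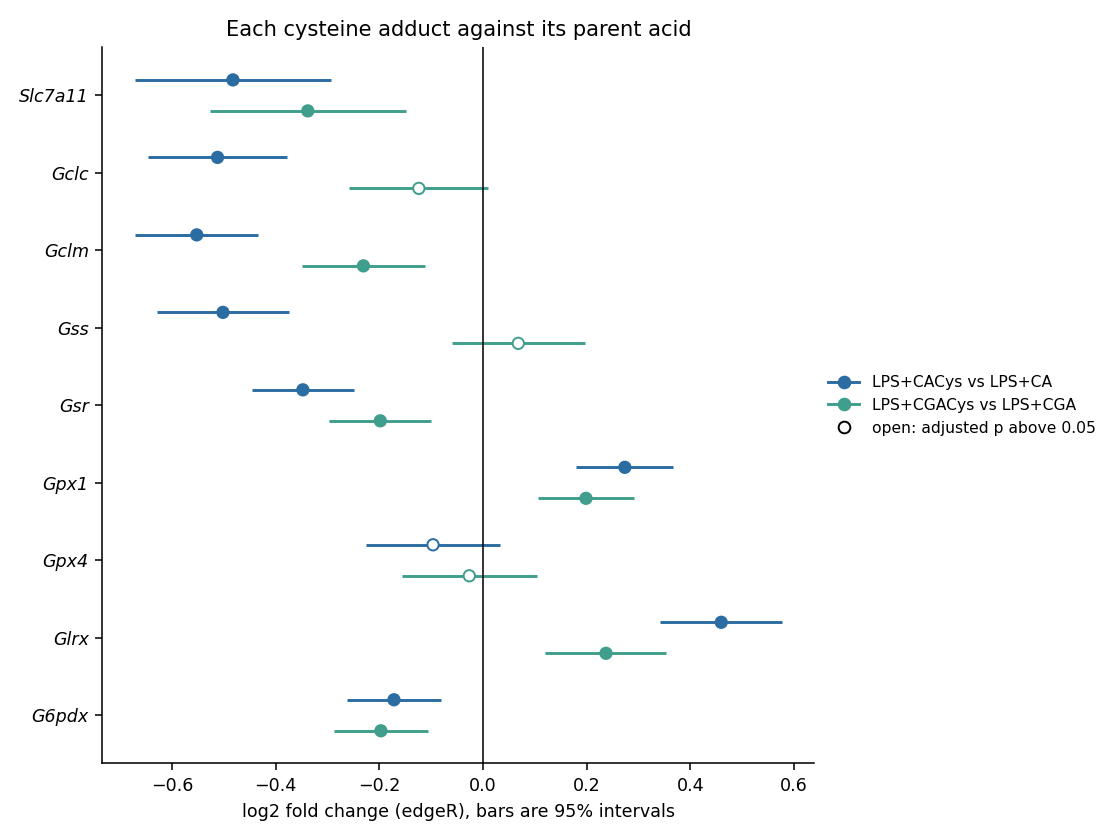
log2 fold change of each gene for the cysteine adduct against its parent acid (horizontal axis), both with LPS, with 95% intervals as bars, from edgeR with 3 libraries per group; filled points have an adjusted p of 0.05 or less. CACys against CA has 8 filled points, from -0.55 for Gclm to 0.46 for Glrx, and CGACys against CGA has 6, from -0.34 for Slc7a11 to 0.24 for Glrx.

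The chlorogenic acid adduct differed from its parent in 6 of the 9 genes, 4 lower and 2 higher, where 33.1% of all genes were called, 14.9% lower and 18.2% higher. Slc7a11 was 1.26-fold lower (log2 -0.34, SE 0.09, edgeR adjusted p = 0.00769), Gclm 1.17-fold (-0.23, SE 0.06, 0.00269), Gsr 1.15-fold (-0.20, SE 0.05, 0.00182) and G6pdx 1.15-fold lower (-0.20, SE 0.04, 0.000874). Glrx was 1.18-fold higher (0.24, SE 0.06, 0.00164) and Gpx1 1.15-fold higher (0.20, SE 0.05, 0.00107). Gclc at -0.12 (95% interval -0.26 to 0.01), Gss at 0.07 (-0.06 to 0.20) and Gpx4 at -0.03 (-0.16 to 0.10) were not called, and Gclc was called in a model of only these 2 groups (log2 -0.14, adjusted p = 0.00413). Leaving out each library in turn kept 6 of the 9 called each time. Of the 60 other pathway genes 21 were lower and 5 higher, among them Slc38a2 at 565 ± 8.23 against 852 ± 16.3 CPM (log2 -0.59, edgeR adjusted p = 4.33e-12). Oplah, the 5-oxoprolinase gene, stood at 1.39 ± 0.404 against 2.65 ± 1.13 CPM (log2 -0.91, adjusted p = 0.0117) and Gstt3 at 9.37 ± 0.842 against 5.87 ± 0.788 CPM (log2 0.67, adjusted p = 0.00077).

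The difference between adduct and parent was itself larger in caffeic than in chlorogenic acid for 3 genes, tested as the adduct effect in CGA minus that in CA. It was 0.57 for Gss (SE 0.09, edgeR adjusted p = 0.000347), 0.39 for Gclc (SE 0.09, 0.0231) and 0.32 for Gclm (SE 0.08, 0.0331), where 2.18% of all genes were called (1.09% above 0, 1.09% below). For Gss the adduct effect was -0.50 in caffeic acid and 0.07 in chlorogenic acid, for Gclc -0.51 and -0.12 and for Gclm -0.55 and -0.23. Omitting single libraries gave 1 to 3 calls, with Gss alone called without CA replicate 2, CGA replicate 2 or 3, CACys replicate 1 or 2 or CGACys replicate 3. Gclm was also lost without CA replicate 1 (adjusted p = 0.0632) and Gclc without CGACys replicate 1 (0.0577). Gclc and Gclm were also lost in a model of only these 4 groups (adjusted p = 0.0618 and 0.0861). The other 6 genes were not called, with Slc7a11 at 0.14 (95% interval -0.12 to 0.41), Gsr at 0.15 (0.01 to 0.29) and Glrx at -0.22 (-0.39 to -0.06). Of the other pathway genes Prdx6 (0.29, SE 0.07, edgeR adjusted p = 0.0316) and Slc3a2 (0.25, SE 0.06, 0.0207), the heavy chain partner of Slc7a11, were called, 2 of 60 in all. That pathway count ran from 0 (without CACys replicate 2 or CGACys replicate 1) to 6 (without CA replicate 1 or 3) when single libraries were omitted, and was 5 without CA replicate 2 and 1 without CGA replicate 2 or 3, CACys replicate 1 or CGACys replicate 2 or 3.

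The 2 parent acids differed in 3 synthesis genes, where 1.38% of all genes were called, 0.634% higher and 0.747% lower. CA against LPS, CACys against CA, the difference between adduct effects and this comparison share the 3 LPS + CA libraries. Their calls are therefore not independent. Gss was 1.38-fold lower with CGA than with CA (log2 -0.46, SE 0.06, edgeR adjusted p = 0.00017), Gclc 1.23-fold (-0.30, SE 0.06, 0.0201) and Gclm 1.21-fold lower (-0.27, SE 0.06, 0.0163), each with no overlap between the libraries. The share of all genes without overlap was not counted. Gss alone was called without LPS + CA replicate 2, CGA replicate 2 or CGA replicate 3, and none of the 9 was in a model of only these 2 groups (edgeR, 5 at an unadjusted p under 0.05), in which Gss had an adjusted p of 0.0516. DESeq2 called 4, Glrx among them (higher with CGA, log2 0.18, adjusted p = 0.0495). Slc7a11 at -0.07 (95% interval -0.26 to 0.12), Gpx1 at 0.04 (-0.06 to 0.13), Gpx4 at -0.09 (-0.22 to 0.04) and G6pdx at -0.01 (-0.10 to 0.08) were not called. Of the other pathway genes 7 of 60 were lower with CGA, among them Gsta3 at 17.7 ± 0.621 against 26.2 ± 1.71 CPM (log2 -0.57, edgeR adjusted p = 0.00141), Gstm4 at 16.8 ± 0.783 against 21.9 ± 2.29 CPM (-0.38, 0.0402) and Prdx6 at 250.6 ± 12.5 against 326 ± 25.2 CPM (-0.38, 0.00017). Omission of single libraries gave 2 to 13 pathway calls, 13 without CA replicate 3, 5 without CA replicate 2 and 2 without any CGA replicate. With CGA and CA fitted alone 0 of the 60 were called by edgeR, with 19 at an unadjusted p under 0.05, while DESeq2 on all libraries called 8.

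The 2 adducts did not differ in any of the 9 genes by the test, with 0 called by edgeR, 0 by DESeq2 and 0 at an unadjusted p under 0.05, where 1.80% of all genes were called (1.02% higher, 0.785% lower). The intervals bound what could have been missed. Slc7a11 stood at log2 0.07 (95% interval -0.11 to 0.26), Gss at 0.11 (-0.02 to 0.24), Gclc at 0.09 (-0.04 to 0.23) and Gclm at 0.05 (-0.07 to 0.17). Gsr stood at 0.02 (-0.08 to 0.12), Gpx1 at -0.04 (-0.13 to 0.06), Gpx4 at -0.02 (-0.15 to 0.11), Glrx at -0.04 (-0.16 to 0.07) and G6pdx at -0.04 (-0.13 to 0.05). Of the 60 other pathway genes 0 were called by edgeR, with 8 at an unadjusted p under 0.05 and 2 called by DESeq2.

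Ordered by group mean, Slc7a11, Gclm and Gsr ran in the same sequence from control through CACys, CGACys, LPS alone and CGA to CA. Within that order the CACys, CGACys and LPS libraries overlapped one another for all 3 genes, the CGA libraries lay above LPS alone, and CGA and CA overlapped for Slc7a11 only. None of these 3 genes was called for CGA against LPS alone. They were picked from the 9 for their shared order, and they correlate with one another over the 15 LPS libraries (Pearson r 0.87 to 0.98). How many of all genes separate or run in this order was not counted, so the order is description only. Gpx1 ran the other way from CA through CGA, CGACys, CACys and LPS to control, with CA overlapping CGA, and the adducts overlapping each other and LPS. Glrx ran from control through CA, CGA, LPS and CGACys to CACys. For Gss the LPS group had the lowest mean of the 5 groups with LPS, and its libraries overlapped those of CACys. Gclc, Gpx4 and G6pdx also ran in orders that differed from that of Slc7a11.

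Over the 15 LPS libraries, the genes most like Gclm by Pearson correlation of log2 CPM, among 10423 ranked, were Gsr (r = 0.98), Slc48a1 (0.98), Srxn1 (0.97), Gclc (0.97) and Chml (0.97). Slc48a1 encodes a heme transporter and Srxn1 sulfiredoxin. The genes most like Slc7a11 were Abcc1 (0.98), which encodes an exporter of glutathione conjugates, Ampd3 (0.97), Chpf2 (0.95), Ptpn14 (0.95) and Txnrd1 (0.95), the thioredoxin reductase gene. Gpx1 and Glrx ran against Gclm, at r = -0.83 and -0.81, Gss stood at 0.82 and Gpx4 at 0.39. These libraries come from 5 treatment groups and the values mostly describe differences between groups, so they are given as a description.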

How the data were processed

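RNA sequencing was done on total RNA of 18 libraries, 3 in each of 6 groups. The values the submitters deposited are raw counts per Ensembl gene, 1 column per library. HISAT, DESeq2 and the mm10 build are named per the submitters' processing notes, without versions. The counting program, annotation release and strand setting are not given in the sources used here, which bears on overlapping genes and near-identical copies. Columns were matched to samples by name, ignoring case and separators.

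A single edgeR 4.0.16 model (R 4.3.3) held all 6 groups, with filterByExpr (13251 of 54532 genes kept, at least 99.9% of each library's counts), TMM factors and robust quasi-likelihood F tests, over 10 contrasts. P-values were Benjamini-Hochberg adjusted over all tested genes in each contrast. Standard errors were taken as the size of the log2 change over the root of F. The model was also run on simulated counts with changes planted in CA against LPS only. The outcome of that run is not given here. Levels are CPM with TMM factors. Positions are from RefSeq on GRCm38.p6, found by symbol for all 9 genes.

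The members, the pathway list and the marker lists were chosen with earlier results of these data known. In each comparison the text names at most 3 called pathway genes, those with the largest log2 change whose higher group averaged 50 counts or more. For Slc7a11 and Gclm it names the 5 genes with the highest Pearson r of log2 CPM (prior count 2). Alternatives were RLE and upper-quartile factors, no filter, at least 1 CPM in any 3 libraries, the replicate number as a block, only the groups compared, DESeq2 1.42.0, and omission of each library.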

Additional observations from a re-analysis of the deposited data

Results flagged for a closer look

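The change from parent acid to cysteine adduct differed between caffeic and chlorogenic acid for 3 of the 9 genes. This was tested as the difference itself (CGACys against CGA minus CACys against CA, edgeR). The difference was 0.57 in log2 for Gss (adjusted p = 0.000347), 0.39 for Gclc (0.0231) and 0.32 for Gclm (0.0331). All 3 encode enzymes of glutathione synthesis, and CACys lay below CA for each. Over single-library omissions the Gss call was kept every time, whereas those of Gclc and Gclm were lost without any of 7 libraries each. Between the parent acids, on the same CA and CGA libraries, the same 3 genes were called, and between the adducts 0 of the 9. What underlies the difference between adduct effects was not tested.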

How the results depend on the processing

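Over the other settings listed with the methods, 485 values of called member changes kept their call, 40 lost it and 0 reversed; of those not called, 656 stayed so, 16 became called and 27 changed sign. With only the groups compared in the model, the member calls were 4 in place of 1 for CGA against LPS, 1 in place of 2 for CACys against LPS, 0 in place of 3 for CGA against CA (edgeR, with 5 at an unadjusted p under 0.05 and 4 by DESeq2) and 1 in place of 3 for the difference between adduct effects. With no filter, CGA against LPS had 2. Omitting single libraries gave 0 to 1 calls for CGA against LPS, 0 to 2 for CACys against LPS, 1 to 3 for CGACys against LPS, 1 to 3 for CGA against CA and 1 to 3 for the difference between adduct effects. The cause was not tested. Gclc with LPS alone against control, not called, turned to 0.0150 with RLE factors, 0.0162 with only these groups and 0.0162 by DESeq2.

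Omitting single libraries moved these uncalled log2 values across 0. Gclc ran from -0.0472 to 0.0333 for LPS against control and -0.0358 to 0.0392 for CGACys against LPS. For CA against LPS Gpx4 ran from -0.00296 to 0.110 and G6pdx from -0.00908 to 0.0774, and G6pdx with CGA from -0.0105 to 0.0428. With CACys against LPS Gpx1 ran from -0.0464 to 0.00375 and Gpx4 from -0.101 to 0.0284. For CGA against CA Slc7a11 ran from -0.176 to 0.0248 and G6pdx from -0.0612 to 0.0253. For CGACys against CACys Gsr ran from -0.00585 to 0.0780, Gpx4 from -0.105 to 0.0248 and Glrx from -0.0995 to 0.0118. For the difference between adduct effects Gpx4 ran from -0.0120 to 0.128 and G6pdx from -0.0636 to 0.0227.

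Same-numbered libraries did not deviate together (45 pairs, median r 0.00583, 4 above 0.1, against 11 of 90 with different numbers), so the numbers were not taken as pairs. With the replicate block CA against LPS had 7 member calls in place of 6, the added one being Slc7a11, the other member counts stood as without it, and CGA against LPS had 197 calls over all genes in place of 96. The background counts over all genes moved by more than 1.5 times in several comparisons: with only the groups compared CA against LPS had 434 in place of 1023, CACys against CA 2145 in place of 3589, CGA against LPS 283 in place of 96, CGA against CA 3 in place of 183, CGACys against CACys 560 in place of 239 and the difference between adduct effects 166 in place of 289. With no filter the last 4 were 290, 614, 409 and 457. Leaving out 1 library moved them too. CA against LPS had 642 and 541 without LPS replicates 1 and 2, and CACys against LPS 1249 and 1223 without CACys replicates 1 and 2. CGA against LPS had 0 without LPS replicate 2 or CGA replicate 3 (edgeR, with 896 and 1121 genes at an unadjusted p under 0.05, and 258 by DESeq2 on all libraries), 2 without LPS replicate 1, 11 and 63 without CGA replicates 1 and 2 and 233 without LPS replicate 3. CGA against CA had 448, 87 and 1063 without CA replicates 1, 2 and 3 and 87, 45 and 57 without CGA replicates 1, 2 and 3. CGACys against CACys had 157 and 88 without CACys replicates 1 and 3 and 87 and 95 without CGACys replicates 1 and 2. The difference between adduct effects had 438 and 519 without CA replicates 1 and 3, and 162 to 191 without any CGA replicate, CACys replicate 2 or CGACys replicate 1 or 3. The background shares rest on these counts.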
